A study of Mus musculus with 6 samples.

Results

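The 40 genes described here code for glucose and lactate transporters, the enzymes of glycolysis, the lactate dehydrogenases, pyruvate dehydrogenase and its kinases, the pentose phosphate pathway and HIF-1 alpha. They were listed by name as genes of these pathways, out of 26332 genes counted in the series. RNA was measured by sequencing in double negative 3 (DN3) thymocytes, a stage of early T-cell development, from C57BL/6 mice. The wild type (WT) group had 4 mice and the knockout (KO) group had 2 mice with a knockout of Tcf7, which codes for the T-cell transcription factor TCF-1. The labels name no other allele or agent, and they give neither the age of the mice nor the part of Tcf7 that was removed. In the WT group, mice 1, 2 and 3 were female and mouse 4 was male, and in the KO group mouse 1 was male and mouse 2 female. DN3 cells were isolated by flow cytometry as CD25-positive cells negative for CD44, for the T-cell markers TCRβ, CD3 and CD8, for NK1.1 and for CD1d tetramer. CD4 is not in the list of sorting markers. Each library came from a separate mouse and from a bulk population, in which fewer cells of a type and less RNA per cell cannot be told apart.

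Glucose enters T-lineage cells through facilitative transporters and is phosphorylated by hexokinases, which trap it in the cell. Glycolysis splits it to pyruvate and yields ATP, with phosphofructokinase as the main committed step. The pentose phosphate pathway branches off at glucose 6-phosphate and supplies NADPH and ribose for nucleotides. Pyruvate is then either reduced to lactate by lactate dehydrogenase or oxidised in mitochondria by pyruvate dehydrogenase, which the kinases Pdk1 to Pdk4 switch off. HIF-1 alpha, the oxygen-regulated subunit of HIF-1, drives many genes of glycolysis in low oxygen. Proliferating thymocytes at the β-selection checkpoint, which begins within the DN3 stage, are known for high glucose use.

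The libraries held 13673860 to 41666797 counts assigned to genes, and both KO libraries were shallower than every WT library. In CPM, counts scaled to a common library size, Tcf7 stood at 2326, 2269.8, 2266 and 2094 in WT 1 to 4, against 1133 in KO 1 and 1022 in KO 2. The KO libraries thus held about as much Tcf7 as each other and less than any WT library, with a log2 fold change of -1.05 (SE 0.0857, adjusted p = 0.00127). All 11 DN3 markers on the list were detected and tested, 6 were lower and 1 was higher in KO, and their summed level was 10137 to 10727 CPM in WT, 7413 CPM in KO 1 and 8192 CPM in KO 2. Markers of double-positive thymocytes, a later stage, summed to 137 to 182 CPM in WT, 263 CPM in KO 1 and 2245 CPM in KO 2, and 4 of 6 were higher in KO. B-cell markers summed to 62.9 to 71.7 CPM in WT, 289.6 CPM in KO 1 and 272 CPM in KO 2, and 4 of the 5 tested were higher in KO. Of all tested genes, 14.1% were higher and 16.5% lower in KO, which stands beside each of these marker counts. Ms4a1, Ebf1 and Pax5, which define B cells, were at 0 in KO 1. Dendritic markers stayed at or below 0.970 CPM in all libraries, and myeloid markers summed to 19.1 to 22.7 CPM in WT and 8.55 and 10.7 CPM in KO. Erythroid markers summed to 3.51 to 12.6 CPM in WT, 4.401 CPM in KO 1 and 26.9 CPM in KO 2, and NK-cell markers to 54.1 to 70.2 CPM in WT and 51.2 and 50.7 CPM in KO. Thymic epithelial markers summed to 169.8 to 177 CPM in WT and 46.3 and 60.6 CPM in KO, with Krt5 and Foxn1 at 0 in all libraries. The 2 KO libraries varied far more than the WT libraries, with a common biological coefficient of variation of 0.491 against 0.0844. Mitochondrial transcripts took 0.893% of counts in KO 1 and 1.78% in KO 2, against 2.61% to 2.92% in WT. The part of these differences in the results below was not tested.

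Members moved in both directions in KO. Of the 40 genes, 39 passed the filter on low counts and were tested. Only Hk3 did not pass. In KO, 7 were higher, 9 were lower and 23 did not pass the test, so that 41.0% of the tested members were called, beside 30.7% of all 13294 tested genes. The called members made up 17.9% of the tested members upward and 23.1% downward, beside 14.1% and 16.5% of all tested genes. The genes called higher were Slc2a3, Pfkp, Pgk1, Eno1, Eno2, Pdha1 and Hif1a. The genes called lower were Pfkl, Pfkm, Pfkfb3, Aldoa, Aldoc, Tpi1, Pdk1, Pdk2 and Pdk3. Eno2 passed the filter only through the KO libraries, where it is high, and Aldoc only through the WT libraries, so that their differences carry no weight as calls. Without them, 6 of 37 members were higher and 8 were lower. The median log2 fold change of the tested members was -0.13, beside -0.045 over all tested genes. In total, the members took 0.549% to 0.594% of counts in WT, 0.581% in KO 1 and 0.521% in KO 2.

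Both KO libraries lay outside the WT range on the same side for 27 of the 39 tested members (69.2%), beside 51.5% of all tested genes. Of these 27, 11 members lay above the WT range and 16 below it. All 16 called members were among them. The interaction of genotype and sex passed edgeR's test for 74.4% of the tested members, beside 54.7% of all tested genes. With 1 male WT, 1 male KO and 1 female KO mouse, that test sets single mice against the spread of the 3 WT females and cannot show a difference between the sexes. A fit that lets the KO libraries vary more than the WT libraries (limma-voom with weights per genotype) called 6 members, beside 11.3% of all tested genes. Of these, 4 were higher (Slc2a3, Pfkp, Pgk1 and Eno1), beside 7.42% of all tested genes, and 2 were lower (Pdk1 and Pdk2), beside 3.86%. They are the calls that both fits share. Leaving out a single WT female library ended every member's call except those for Slc2a3, Pfkp and Pgk1, as stated beside each.

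**Figure D1:**
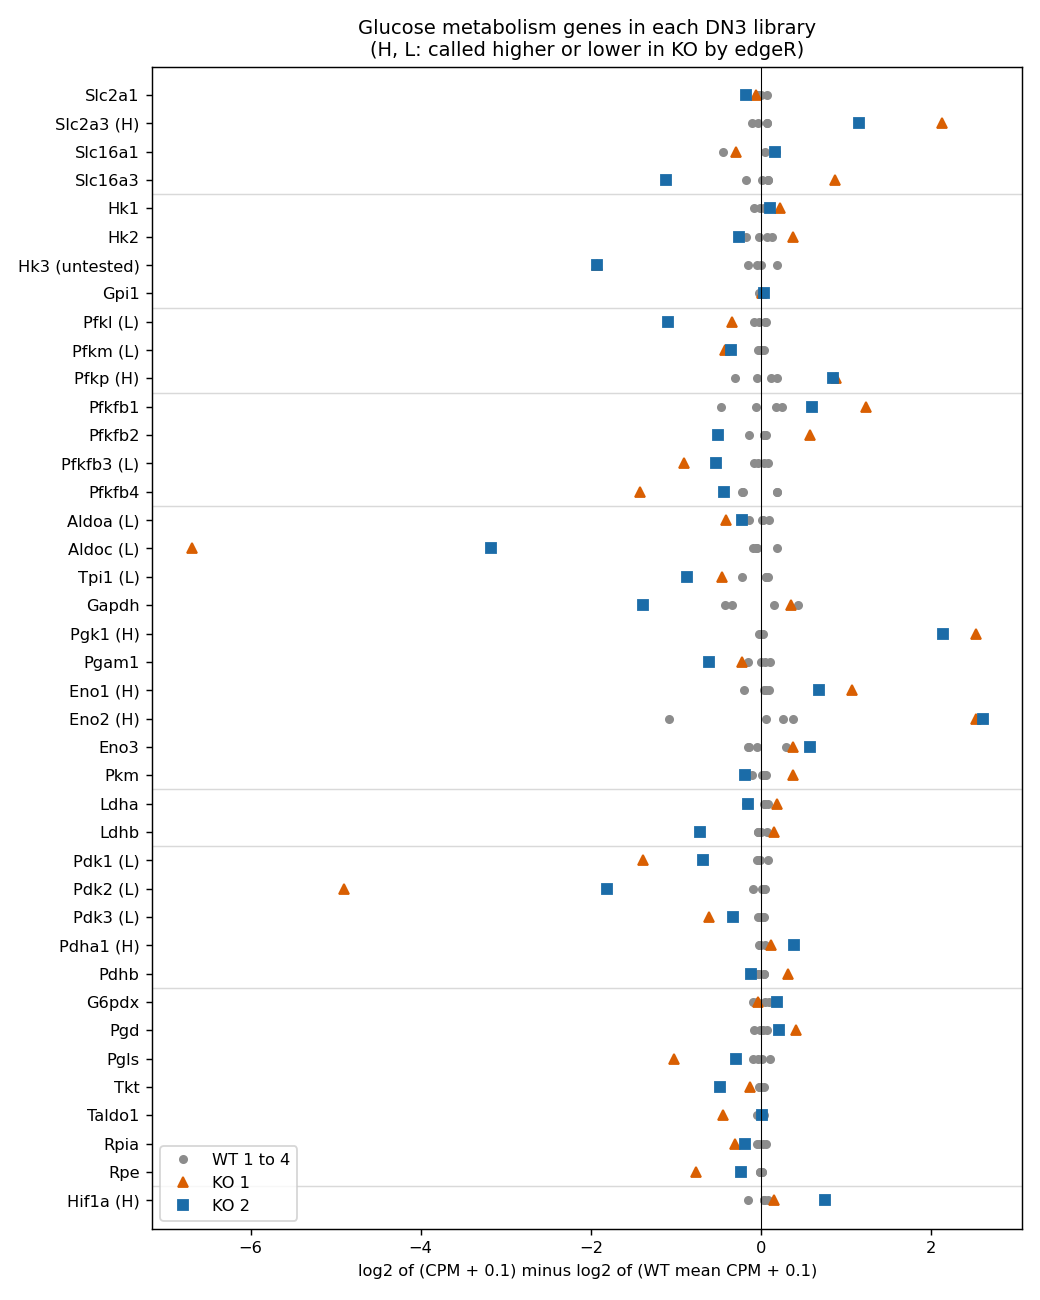
Level of each member in each library, as log2(CPM + 0.1) minus log2(mean CPM of the 4 WT libraries + 0.1), with members ordered by their place in the pathway. The WT points lie close together, whereas the KO points for Pgk1 and Slc2a3 lie above them, those for Pdk2 and Aldoc lie below them, and those for Ldha, Pkm and Hk2 fall on both sides. Both KO libraries hold no Hk3 count, so that their points coincide.

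By level per gene length (RPKM, CPM per kilobase of the gene lengths in the deposited table), the highest members in WT were Ldha at 391 ± 30.2 RPKM (SD, n = 4), Pkm at 288 ± 13.5 RPKM and Tkt at 255 ± 5.34 RPKM. These genes code for the A subunit of lactate dehydrogenase, pyruvate kinase and the pentose phosphate enzyme transketolase. In WT, 9 members stood at 100 RPKM or more, 18 between 10 and 100, 9 between 1 and 10 and 4 below 1. The 9 highest also included Taldo1, Tpi1, Aldoa, Gpi1, Pgls and Pdha1. Neighbours in this order often could not be separated, since 17 of the 39 neighbouring pairs overlapped in their WT range. The first 4 places were held by the same genes in both KO libraries. Pgk1 stood at place 29 in WT with 7.99 ± 0.117 RPKM (SD, n = 4), at place 14 in KO 1 with 46.4 RPKM and at place 18 in KO 2 with 35.3 RPKM. Slc2a3 stood at place 30 in WT with 7.21 ± 0.440 RPKM, at place 20 in KO 1 and at place 25 in KO 2. Gapdh, a standard reference gene, stood only at place 28 with 8.05 ± 2.34 RPKM. Gapdh has many near-identical pseudogenes, and how the authors counted reads that match several places is not given in the sources used here. Its level is therefore uncertain, and levels of Pgk1, Eno1 and other members with near copies share that limit.

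**Figure D2:**
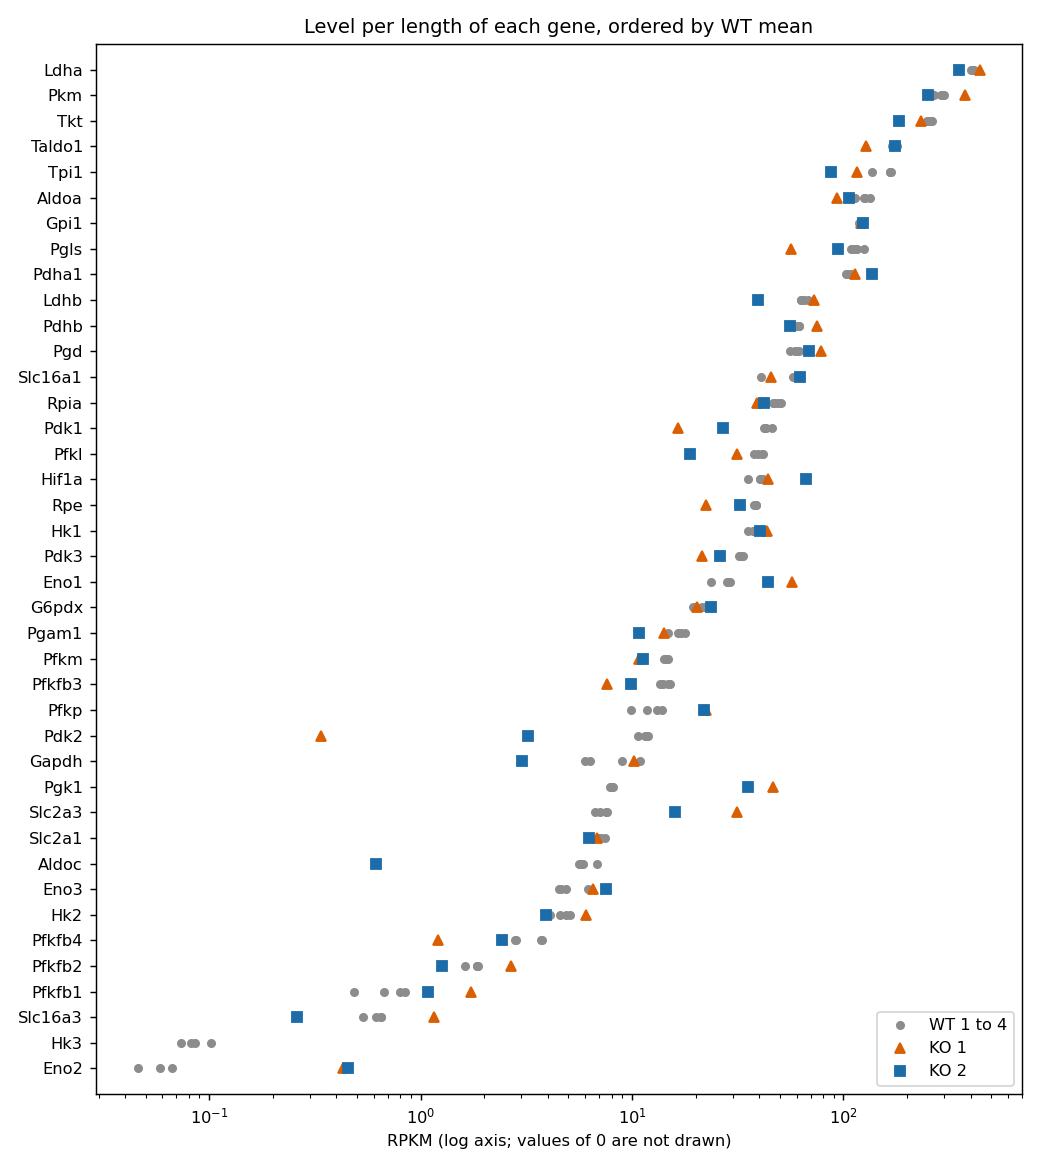
Level per gene length (RPKM, log axis) of each member in the 4 WT and 2 KO libraries, ordered by the WT mean; libraries at 0 are not drawn. Ldha, Pkm and Tkt lead in WT, and Pgk1 and Slc2a3 stand among genes of lower level in WT and further up in both KO libraries.

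Promoter sequence was examined because many of these genes are known targets of HIF-1, whose binding core is read as ACGTG or GCGTG. The windows were RefSeq promoters of build GRCm38.p6, from 250 bases before to 50 bases after a gene's start, and 39 of the 40 members had an entry. ACGTG or GCGTG occurred on either strand in 45 of 59 member promoters (76.3%) and in 43.8% of all 32851 promoters. Counted by gene, 35 of 39 members and 46.7% of 27025 genes held it. The E-box CACGTG, the core bound by MYC and related factors, itself contains ACGTG. It occurred in 7 of the 59 member promoters (11.9%) and in 7.2% of all promoters. The TCF-family core CTTTGA occurred in 10 of 59 (16.9%) and in 16.0% of all. A match describes the letters of the window and not binding. ACGTG and GCGTG both hold the letters CG, and all promoters were not matched to the members for base composition or expression. The shares therefore do not measure enrichment of HIF-1 sites. The sequence upstream of the start is printed for the member with the lowest adjusted p among those that rose (Pgk1), for the pyruvate dehydrogenase kinase gene with the highest WT level among those that fell (Pdk1) and for the member with the highest level per length (Ldha), with ACGTG or GCGTG on either strand in capitals. The Pgk1 window is chrX:106186850-106187099, the Pdk1 window is chr2:71872974-71873214 and the Ldha window is chr7:46845554-46845803, all on the plus strand. None of them holds bases of an exon annotated in GENCODE M21. The Ldha window lies inside the annotated gene, downstream of its first base.
Pgk1: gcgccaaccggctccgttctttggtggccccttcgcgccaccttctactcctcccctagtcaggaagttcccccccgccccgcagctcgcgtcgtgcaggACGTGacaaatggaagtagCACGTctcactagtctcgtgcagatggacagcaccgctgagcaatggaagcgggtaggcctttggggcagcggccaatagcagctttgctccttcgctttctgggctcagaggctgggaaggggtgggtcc
Pdk1: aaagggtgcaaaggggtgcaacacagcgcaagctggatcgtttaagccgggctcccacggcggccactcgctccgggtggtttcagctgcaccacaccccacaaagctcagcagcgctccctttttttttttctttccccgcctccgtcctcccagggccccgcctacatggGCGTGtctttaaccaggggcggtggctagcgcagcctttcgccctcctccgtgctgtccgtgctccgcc
Ldha: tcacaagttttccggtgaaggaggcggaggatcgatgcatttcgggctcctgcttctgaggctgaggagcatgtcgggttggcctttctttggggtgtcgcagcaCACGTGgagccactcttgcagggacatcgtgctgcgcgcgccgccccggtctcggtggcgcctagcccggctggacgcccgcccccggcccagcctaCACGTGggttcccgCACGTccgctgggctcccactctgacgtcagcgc
The Pgk1 window held 2 matches, 150 and 131 bases before the start. The Pdk1 window held 1 match, 78 bases before the start. The Ldha window held 5 matches, and 2 of its stretches are the palindrome CACGTG, which is read on both strands. The genes were picked for their values, so the matches say nothing of how the motif goes with direction.

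Among the transporters, the neuronal-type glucose transporter gene Slc2a3 (GLUT3) was higher in KO, beside 14.1% of all tested genes. The other 3 members did not pass the test. Slc2a3 lies on chromosome 6, from 122727809 to 122802363. The 4 WT libraries held 30.1, 29.9, 26.5 and 27.8 CPM of it, against 125 CPM in KO 1 and 63.4 CPM in KO 2. Both KO libraries lay above all WT libraries, and KO 1 was the higher. The difference was 2.96-fold, a log2 fold change of 1.57 (SE 0.239, adjusted p = 0.00866, and 0.000404 by limma-voom with weights). Its log2 fold change was 1.14 without WT 4, 1.15 without KO 1 and 2.15 without KO 2, and the call held each time. Slc2a1 codes for GLUT1, the transporter induced on T-cell activation, and was at 17.7, 17.8, 19.2 and 18.3 CPM in WT and 17.5 and 16.1 CPM in KO. All of these lie close together, with a log2 fold change of -0.13 (SE 0.116, adjusted p = 0.429). Per length, Slc2a3 made up 47.2% to 52.5% of the sum of both transporters in WT, 82.2% in KO 1 and 71.9% in KO 2. That sum was 14.1 to 14.5 RPKM in WT, 38.3 RPKM in KO 1 and 22.3 RPKM in KO 2. Neither KO library overlapped WT in this share or in this sum. With 2 against 4 libraries, the smallest two-sided exact permutation p is 0.1333, so such shares are given as values. Slc16a1 codes for the lactate carrier MCT1 and was at 273, 255, 277 and 180.2 CPM in WT and 201 and 275 CPM in KO. Its KO libraries fell within the WT range, in which the male mouse WT 4 was lowest (adjusted p = 0.419). Slc16a3, the gene of the lactate exporter MCT4, was near the limit of detection, at 1.38 to 1.67 CPM in WT, 2.97 CPM in KO 1 and 0.672 CPM in KO 2.

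None of the 3 tested genes of the first 2 steps passed the test by edgeR, 0 of them at an unadjusted p under 0.05, and limma-voom with weights and DESeq2 called none either. Hk1, the hexokinase with the highest level in WT, was at 175, 168, 173 and 159.5 CPM in WT and 197 and 181 CPM in KO. Both KO libraries lay just above the WT range, by a log2 fold change of 0.17 (SE 0.0785, adjusted p = 0.159). Hk2, the inducible hexokinase of proliferating cells, was at 22.6 to 28.0 CPM in WT, 33.5 CPM in KO 1 and 21.5 CPM in KO 2, so that the KO libraries lay on opposite sides of WT. Hk1 made up 87.8% to 89.4% of the hexokinase sum per length in WT, 87.8% in KO 1 and 91.2% in KO 2. Hk3, a hexokinase gene of myeloid cells, had 33 counts over the 4 WT libraries and none in either KO library. At 3 counts, the floor was 0.154 CPM in KO 1 and 0.224 CPM in KO 2, against 0.281 ± 0.0390 CPM in WT (SD, n = 4). Gpi1 codes for glucose-6-phosphate isomerase and was at 354, 341, 338 and 344 CPM in WT and 348 and 353 CPM in KO. Its values were nearly level across all libraries, with a log2 fold change of 0.028 (SE 0.0614, adjusted p = 0.763).

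All 3 phosphofructokinase genes passed the test, beside 30.7% of all tested genes, and they moved in opposite directions. Limma-voom with weights called only Pfkp of the 3, beside 11.3% of all tested genes. Pfkp, the platelet-type subunit, was at 52.5, 46.9, 55.4 and 39.4 CPM in WT and 89.2 and 86.9 CPM in KO. The KO libraries were a few CPM apart and stood above every WT library. Pfkp rose 1.90-fold, by a log2 fold change of 0.93 (SE 0.130, adjusted p = 0.00664, and 0.0154 by limma-voom with weights), and it kept its call when any single library was left out. Pfkl, the liver-type subunit, has the highest WT level of the 3 per length, and was at 154, 146, 155 and 140.2 CPM in WT and 117 and 69.8 CPM in KO. It fell 1.69-fold, with both KO libraries below WT and KO 2 the lower (log2 fold change -0.76, SE 0.207, adjusted p = 0.0449). Pfkm, the muscle-type subunit, was at 45.2, 43.8, 43.2 and 44.5 CPM in WT and 33.0 and 34.6 CPM in KO. It fell 1.30-fold (log2 fold change -0.38, SE 0.0780, adjusted p = 0.0191), with each group tightly spaced. The calls for Pfkl and Pfkm were lost when WT 1, WT 2 or WT 3 was left out (adjusted p 0.114 to 0.115 for Pfkl and 0.0804 to 0.0958 for Pfkm). Pfkl had a log2 fold change of -1.11 without KO 1 and -0.27 without KO 2.

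Per length, Pfkp made up 15.9% to 19.9% of phosphofructokinase RNA in WT, 34.6% in KO 1 and 42.0% in KO 2, and Pfkl 59.7% to 60.6%, 48.7% and 36.2%. The most abundant subunit was Pfkl in all WT libraries and in KO 1, and Pfkp in KO 2. The summed level was 62.2 to 69.8 RPKM in WT and 64.7 and 51.9 RPKM in KO 1 and KO 2, so that KO 1 lay inside the WT range. The composition of this step thus differed from WT in both KO libraries, whereas its sum did so only in KO 2.

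The PFKFB enzymes make and break fructose 2,6-bisphosphate, the main activator of phosphofructokinase. Of their 4 genes, 1 was lower, beside 16.5% of all tested genes, and 3 did not pass the test. Pfkfb3, the form with the strongest kinase over phosphatase activity, was at 73.8, 77.9, 71.5 and 79.9 CPM in WT and 40.3 and 52.4 CPM in KO. Both KO libraries lay below WT, with a 1.62-fold decrease (log2 fold change -0.70, SE 0.128, adjusted p = 0.0151). The call was lost without WT 1 (adjusted p = 0.0622) and without WT 2 (0.0614), and stood at 0.0592 by limma-voom with weights. Pfkfb4 was at 9.44 to 12.6 CPM in WT and 4.04 and 8.13 CPM in KO, also below the WT range, at an adjusted p of 0.113. Pfkfb2 lay above WT in KO 1, at 25.7 CPM, and below WT in KO 2, at 12.1 CPM. Pfkfb1 was at most 2.97 CPM in any library. The summed level of the 4 genes per length was 18.9 to 21.5 RPKM in WT, 13.2 RPKM in KO 1 and 14.7 RPKM in KO 2. Pfkfb3 made up 70.3% to 72.6% of that sum in WT, 57.7% in KO 1 and 67.6% in KO 2.

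**Figure D3:**
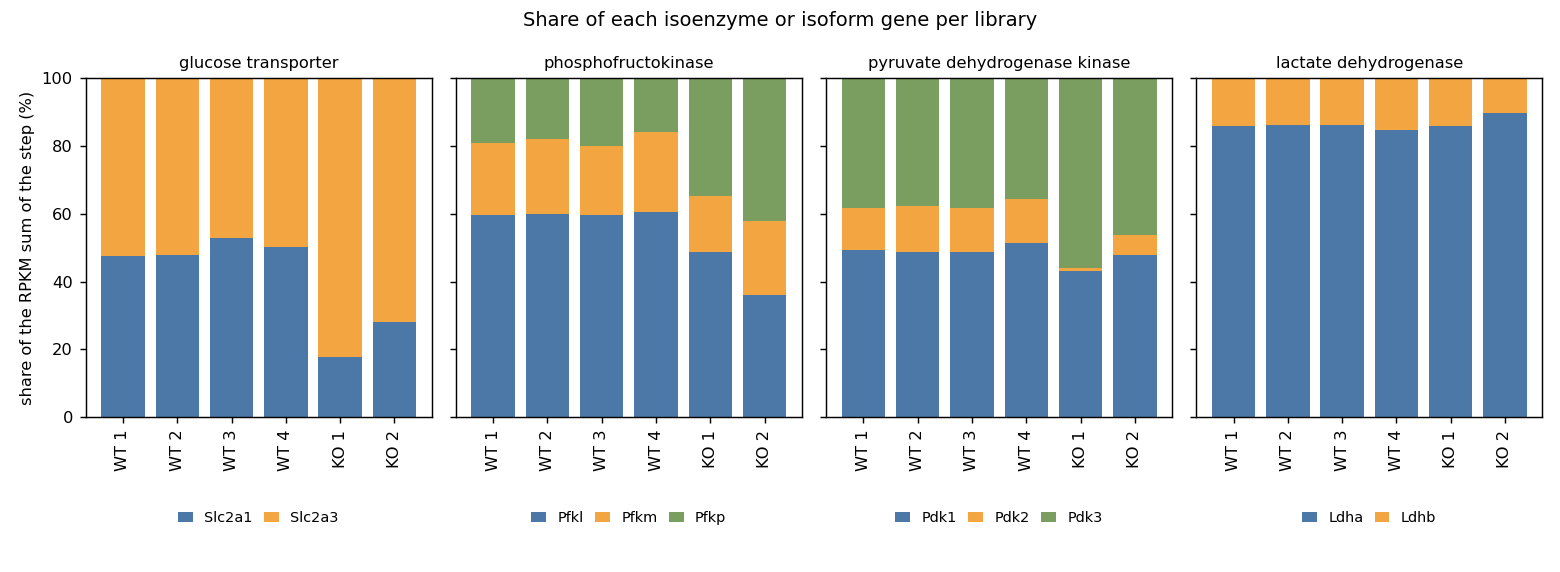
Share of each gene in the summed level per length (percent of the step's RPKM) in each library. The steps drawn are the glucose transporters, phosphofructokinases, pyruvate dehydrogenase kinases and lactate dehydrogenases. Slc2a3 and Pfkp take a larger share in both KO libraries than in any WT library and Pdk2 a smaller one. The share of Ldha stays within a few percentage points.

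Of the 10 genes of lower glycolysis, 3 were higher, 3 were lower and 4 did not pass the test. Without Eno2 and Aldoc, whose calls carry no weight, 2 of 8 were higher and 2 were lower. Over all tested genes, 14.1% were higher and 16.5% lower. Pgk1 codes for phosphoglycerate kinase, the first ATP-yielding step, and its promoter window is printed above. Pgk1 (chromosome X, 106187100 to 106203699) was at 14.6, 14.4, 14.5 and 14.1 CPM in WT and 83.5 and 63.5 CPM in KO. The WT libraries were nearly identical and both KO libraries stood far above them. It rose 4.95-fold (log2 fold change 2.31, SE 0.117, adjusted p = 0.000373, and 1.03e-06 by limma-voom with weights). The call held when any single library was left out, with log2 fold changes from 2.13 to 2.55. The direction was the same in each sex, with a log2 ratio of 2.13 in females and 2.56 in males.

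Enolase makes phosphoenolpyruvate, and 2 of its 3 genes passed the test, though the call for Eno2 carries no weight. Eno1, the form of most tissues, was at 50.5, 51.5, 49.8 and 42.2 CPM in WT and 102 and 77.8 CPM in KO. Both KO libraries lay above WT, by 1.85-fold (log2 fold change 0.89, SE 0.155, adjusted p = 0.0128, and 0.00467 by limma-voom with weights). The call was lost without WT 3 (adjusted p = 0.0512). The near-identical copy Eno1b was at 44.1 to 57.6 CPM in WT and 63.8 and 75.2 CPM in KO, and reads of the pair may have been split between them. With the counts of both added, the log2 fold change was 0.71 (adjusted p = 0.00803), an alternative chosen after seeing the data. Eno2, the neuronal form, was barely detected, with 14 counts over 4 WT libraries and 38 over 2 KO libraries. It was at 0.121, 0, 0.153 and 0.176 CPM in WT and 1.13 and 1.19 CPM in KO. Eno2 reached the filter's minimum of 0.403 CPM in no WT library, so its adjusted p of 0.0336 is given as a description. The Eno2 call was lost without WT 1 (adjusted p = 0.113) and without WT 3 (0.0991), and stood at 0.277 by limma-voom with weights. Eno3, the muscle form, was at 6.88 to 9.45 CPM in WT and 9.98 and 11.5 CPM in KO (adjusted p = 0.134). The summed enolase level per length was 30.0 to 33.6 RPKM in WT, 64.4 RPKM in KO 1 and 51.8 RPKM in KO 2, and Eno1 made up most of it in every library.

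The members of lower glycolysis called lower were both aldolases and Tpi1, and the Aldoc call carries no weight. Aldoa, the main aldolase, was at 243, 231, 229 and 207 CPM in WT and 170.4 and 195 CPM in KO. Its decrease was small, 1.21-fold (log2 fold change -0.27, SE 0.0653, adjusted p = 0.0305), though neither KO library reached the WT range. Aldoc, the brain-type aldolase, was at 11.6, 9.78, 9.93 and 9.59 CPM in WT, at 0 in KO 1 and at 1.04 CPM (14 counts) in KO 2. The KO libraries held at most a small remnant of it. Aldoc passed the filter only through WT, so its fitted log2 fold change of -4.42 (SE 0.898, adjusted p = 0.0197), which was -3.31 without KO 1, is given as a description. Aldoc made up 4.35% to 4.87% of aldolase RNA per length in WT and 0.572% in KO 2. Tpi1, triose phosphate isomerase, was at 270.0, 265, 266 and 219 CPM in WT and 186 and 139 CPM in KO. It fell 1.57-fold (log2 fold change -0.65, SE 0.169, adjusted p = 0.0395), and the male WT 4 was the lowest WT library. Leaving out WT 1, WT 2 or WT 3 ended each of these calls, with adjusted p from 0.11 to 0.13 for Aldoa, 0.0722 to 0.0823 for Aldoc and 0.106 to 0.109 for Tpi1. The Aldoa call was also lost without the sex term (adjusted p = 0.0514). The Tpi1 log2 fold change was -0.92 without KO 1 and -0.25 without KO 2.

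Pkm had the highest WT level per length in lower glycolysis. It was at 777, 755, 766 and 698 CPM in WT and 974 and 654 CPM in KO. KO 1 lay above and KO 2 below the WT range, and the log2 fold change was 0.06 (SE 0.166, adjusted p = 0.799). Counts per gene do not separate the PKM1 and PKM2 splice forms. Pgam1, phosphoglycerate mutase, was at 27.2 to 32.5 CPM in WT and 26.0 and 19.9 CPM in KO, below the WT range in both (adjusted p = 0.11). Gapdh was at 7.39, 11.0, 7.78 and 13.5 CPM in WT and 12.6 and 3.73 CPM in KO (adjusted p = 0.186), and its pseudogene Gapdh-ps15 was at 5.04 ± 0.280 CPM in WT (SD, n = 4).

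Neither lactate dehydrogenase gene passed the test by edgeR, also at an unadjusted p under 0.05, and neither was called by limma-voom with weights or DESeq2. Ldha was at 799, 773, 779 and 669 CPM in WT and 857 and 677 CPM in KO. KO 1 was above every WT library and KO 2 fell within the WT range, with a log2 fold change of 0.022 (SE 0.137, adjusted p = 0.92). Ldhb, the subunit of oxidative tissues, was at 87.7, 81.6, 83.7 and 81.3 CPM in WT and 93.1 and 50.7 CPM in KO. For Ldhb the KO libraries lay on both sides of WT (log2 fold change -0.34, SE 0.221, adjusted p = 0.291). Ldha made up 84.6% to 86.4% of the pair per length in WT, 86.0% in KO 1 and 89.9% in KO 2.

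Pyruvate dehydrogenase converts pyruvate to acetyl-CoA, and its kinases inactivate it by phosphorylation. All 3 kinase members were lower in KO, beside 16.5% of all tested genes. The catalytic subunit gene Pdha1 was higher, beside 14.1% of all tested genes, and Pdhb did not pass the test. Pdk1 was at 221, 216, 219 and 237 CPM in WT and 85.0 and 139 CPM in KO. It fell 1.97-fold, with both KO libraries far below WT (log2 fold change -0.97, SE 0.189, adjusted p = 0.0172, and 0.00162 by limma-voom with weights). Pdk2 was at 24.2, 26.8, 26.1 and 26.5 CPM in WT and 0.768 and 7.31 CPM in KO. It fell 6.96-fold and was nearly absent from KO 1 (log2 fold change -2.80, SE 0.709, adjusted p = 0.0369, and 0.0302 by limma-voom with weights). Pdk3 was at 66.6, 64.8, 66.9 and 63.9 CPM in WT and 42.9 and 52.2 CPM in KO. Its decrease was 1.35-fold, with no overlap (log2 fold change -0.44, SE 0.0853, adjusted p = 0.0171). Leaving out WT 1, WT 2 or WT 3 ended the calls, with adjusted p from 0.0566 to 0.0643 for Pdk1, 0.0949 to 0.0979 for Pdk2 and 0.0659 to 0.0816 for Pdk3. The log2 fold change without KO 1 was -0.64 for Pdk1 and -1.79 for Pdk2, and without KO 2 it was -1.49 and -5.11. In each case KO 1, the male mouse, held less than KO 2.

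The summed kinase level per length was 86.3 to 89.7 RPKM in WT, 38.3 RPKM in KO 1 and 56.3 RPKM in KO 2. Pdk3 made up 35.6% to 38.3% of it in WT, 55.9% in KO 1 and 46.3% in KO 2. Pdk2 made up 0.885% in KO 1 and 5.74% in KO 2, against 12.3% to 13.7% in WT. Both KO libraries thus held less kinase RNA in all and a larger share of Pdk3. Pdk4, the kinase gene induced by fasting, was at 0 in all libraries. Pdha1 was at 298, 288, 288 and 285 CPM in WT and 314 and 378 CPM in KO. It rose 1.22-fold (log2 fold change 0.28, SE 0.0775, adjusted p = 0.0446), with KO 2 well above and KO 1 slightly above WT. That call was lost without WT 1, WT 2 or WT 3 (adjusted p 0.137 to 0.146), without the sex term (0.0764), with upper-quartile scaling (0.0510), with total counts (0.0505), without the filter (0.0617) and by limma-voom with weights (0.345). Of its exon bases, 16.1% overlap Map3k15 on the opposite strand, from which unstranded reads cannot be told apart. Per length, Pdha1 stood at 6.87 times the level of Pdk1 in KO 1 and 5.08 times in KO 2, against 2.24 to 2.51 times in WT. Pdhb was at 87.6 to 91.9 CPM in WT and 112 and 83.1 CPM in KO (adjusted p = 0.703). None of the 6 other tested genes of the complex passed the test by edgeR, 1 had an unadjusted p under 0.05, and limma-voom with weights and DESeq2 called none.

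No member of the pentose phosphate pathway passed the test, out of 7 tested, beside 30.7% of all tested genes. Both KO libraries lay outside the WT range on the same side for 5 of the 7, beside 51.5% of all tested genes. The oxidative branch makes NADPH through G6pdx, Pgls and Pgd. G6pdx, its rate-limiting enzyme, was at 50.6 to 58.0 CPM in WT and 52.8 and 62.0 CPM in KO (log2 fold change 0.12, adjusted p = 0.302). Pgd was at 138, 131, 133 and 124 CPM in WT and 174 and 152 CPM in KO. Both KO libraries were above WT, at an adjusted p of 0.0548. Pgls had 95.8 to 110.0 CPM in WT and 50.05 and 83.3 CPM in KO, below WT in both (adjusted p = 0.0784). Pgls shares 20.6% of its exon bases with Fam129c on the same strand. In the non-oxidative branch, which interconverts sugars, Tkt was at 839.6, 807, 819 and 801 CPM in WT and 744 and 585 CPM in KO. Both KO libraries lay below WT (log2 fold change -0.33, SE 0.103, adjusted p = 0.0621). The ribose-phosphate enzymes Rpe and Rpia also lay below WT in both KO libraries. Rpe was at 99.5 to 101 CPM in WT and 59.0 and 85.5 CPM in KO (adjusted p = 0.0544), and Rpia at 82.7 to 89.3 CPM in WT and 69.1 and 74.9 CPM in KO (adjusted p = 0.0651). Taldo1, transaldolase, was at 216 to 229 CPM in WT and 164 and 224 CPM in KO (adjusted p = 0.296). At an unadjusted p under 0.05, edgeR gave 1 gene higher and 4 lower. The share of all tested genes at that threshold was not computed. DESeq2 called 1 higher (Pgd) and 4 lower (Pgls, Tkt, Rpia and Rpe), beside 39.6% of all tested genes in either direction. Limma-voom with weights called none, beside 11.3% of all tested genes.

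Of 7 tested genes outside the members that belong to the pentose phosphate and ribose pathways, 2 were higher and 1 was lower by edgeR. Over all tested genes, 14.1% were higher and 16.5% lower. Limma-voom with weights called 1 in each direction (Tktl1 higher and H6pd lower), beside 7.42% higher and 3.86% lower of all tested genes. Tktl1, a transketolase-like gene, was at 0.145 to 0.457 CPM in WT and 2.15 and 6.49 CPM in KO. It passed the filter only through KO, so that its call carries no weight in either fit. Rbks, ribokinase, was at 8.11 to 8.79 CPM in WT and 13.9 and 12.8 CPM in KO (log2 fold change 0.64, SE 0.141, adjusted p = 0.0235, and 0.368 by limma-voom with weights). H6pd, the glucose-6-phosphate dehydrogenase of the endoplasmic reticulum, was at 125 to 128 CPM in WT and 63.7 and 94.0 CPM in KO (log2 fold change -0.64, SE 0.132, adjusted p = 0.0202). Both KO libraries lay outside the WT range on the same side for each of these genes, beside 51.5% of all tested genes. They were named because they were called, so that this carries no weight. The calls for Rbks and H6pd were lost without WT 1, WT 2 or WT 3, at adjusted p up to 0.0971 and 0.0737.

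Hif1a rose in KO. It was at 198, 192, 193 and 169 CPM in WT and 208 and 316 CPM in KO. KO 2 stood well above the WT libraries and KO 1 only just, with a 1.46-fold difference (log2 fold change 0.54, SE 0.1002, adjusted p = 0.015, and 0.0538 by limma-voom with weights). The call was lost without WT 1, WT 2 or WT 3 (adjusted p 0.0644 to 0.0676) and without the sex term (0.0716), and the log2 fold change was 0.29 without KO 2 and 0.72 without KO 1. HIF-1 alpha is controlled mainly by protein breakdown, which RNA does not show.

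Known HIF-1 targets outside glycolysis were mixed, with 2 of 20 tested genes (10%) higher and 6 (30%) lower, at a median log2 fold change of -0.35. Over all tested genes, 14.1% were higher and 16.5% lower. Limma-voom with weights called 2 higher and 3 lower, with P4ha2 and Ak4 among them, beside 7.42% and 3.86% of all tested genes. P4ha2 passed the filter only through KO and Ak4 and Car9 only through WT, so that their calls carry no weight in either fit. Among the 15 tested genes that could pass through either group, edgeR called 1 higher and 4 lower. The gene called higher was Ddit4 (adjusted p = 0.00083, and 2.4e-05 by limma-voom with weights). Those called lower were Vegfa, Ndrg1, P4ha1 and Bhlhe40. P4ha2, a collagen prolyl hydroxylase subunit, was at 0 to 0.230 CPM in WT and 12.03 and 7.31 CPM in KO. Vegfa, the angiogenic growth factor, was at 47.2, 53.0, 45.3 and 54.9 CPM in WT and 3.28 and 1.87 CPM in KO (log2 fold change -4.37, SE 0.197, adjusted p = 0.000298). Ak4, a mitochondrial adenylate kinase, was at 7.24 to 9.43 CPM in WT and had no count in either KO library. Car9, a carbonic anhydrase, was at 3.26 to 5.51 CPM in WT and 0 and 0.224 CPM in KO. The WT and KO libraries did not overlap for P4ha2, Vegfa, Ak4 or Car9. These 4 genes were picked as called genes of large change, so that this carries no weight. Both KO libraries lay outside the WT range on the same side for 51.5% of all tested genes. The Vegfa call held when any single library was left out. Pgk1, which rose, and Pdk1, which fell, are themselves textbook HIF-1 targets.

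Of 31 tested regulators of glucose metabolism, 4 were higher (12.9%, beside 14.1% of all tested genes) and 3 were lower (9.68%, beside 16.5%). Their median log2 fold change was 0.059. Limma-voom with weights called 4 higher and 2 lower, beside 7.42% and 3.86% of all tested genes. Without Epas1 and Prkaa2, which passed the filter only through KO, edgeR called 2 of 29 higher and 3 lower. Epas1 and Prkaa2 are also among the 4 called higher by limma-voom with weights, and their calls carry no weight there either. The others of those 4 are Foxo1 and Txnip. Epas1, the gene of HIF-2 alpha, was at 0.125 to 0.345 CPM in WT and 13.0 and 9.78 CPM in KO. Prkaa2, a catalytic subunit of the energy sensor AMPK, was at 0.0383 to 0.209 CPM in WT and 6.70 and 9.78 CPM in KO. Both genes were below the filter's minimum in every WT library, and above it in both KO libraries. Foxo1, a transcription factor held in check by insulin-type signalling, was at 40.7 to 44.9 CPM in WT and 88.4 and 190.1 CPM in KO (log2 fold change 1.72, SE 0.204, adjusted p = 0.00409). The Foxo1 call held when any single library was left out. Hif3a was at 27.4 to 36.7 CPM in WT and 0.768 and 7.39 CPM in KO (log2 fold change -3.13, SE 0.615, adjusted p = 0.018), and its call was lost without WT 1, WT 2 or WT 3, at adjusted p up to 0.0649. Txnip, whose product limits glucose uptake, was at 177, 178, 183 and 182 CPM in WT and 273 and 389 CPM in KO (log2 fold change 0.91, SE 0.123, adjusted p = 0.006). Myc, a driver of glycolytic genes in proliferating T cells, was at 346, 344, 352 and 281 CPM in WT and 363 and 327 CPM in KO (adjusted p = 0.558). Txnip and Myc were chosen after their values were seen.

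Among 9 tested glucose and pyruvate transporters outside the members, none was higher by edgeR or limma-voom with weights, also at an unadjusted p under 0.05 by edgeR. Limma-voom with weights called none lower, and edgeR called 1 lower (11.1%, beside 16.5% of all tested genes). That gene, Slc16a6, was at 28.4 to 33.0 CPM in WT and 27.1 and 21.6 CPM in KO (log2 fold change -0.41, SE 0.111, adjusted p = 0.0439, 0.594 by limma-voom with weights, and 0.11 to 0.135 without WT 1, WT 2 or WT 3). Of 18 tested isoenzymes and side-branch genes, 2 were higher (11.1%) and 5 were lower (27.8%), beside 14.1% and 16.5% of all tested genes. Their median log2 fold change was -0.067, and limma-voom with weights called 1 in each direction. Gpd2, the mitochondrial glycerol 3-phosphate dehydrogenase that passes cytosolic reducing equivalents to the respiratory chain, was at 41.8 to 48.3 CPM in WT and 91.0 and 94.2 CPM in KO (log2 fold change 1.06, SE 0.0727, adjusted p = 0.00076). The KO libraries were alike and stood above every WT library, and the call held when any single library was left out. Pck2, mitochondrial phosphoenolpyruvate carboxykinase, was at 44.7, 42.7, 41.0 and 52.8 CPM in WT and 1.18 and 7.24 CPM in KO (log2 fold change -3.51, SE 0.645, adjusted p = 0.015). Ldhd, the D-lactate dehydrogenase, had a log2 fold change of -1.003 (SE 0.226, adjusted p = 0.0257) and Pgm1, phosphoglucomutase, of -0.58 (SE 0.1003, adjusted p = 0.0121). The calls for Pck2, Ldhd and Pgm1 were lost without WT 1, WT 2 or WT 3, at adjusted p up to 0.0595, 0.107 and 0.0573.

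**Figure D4:**
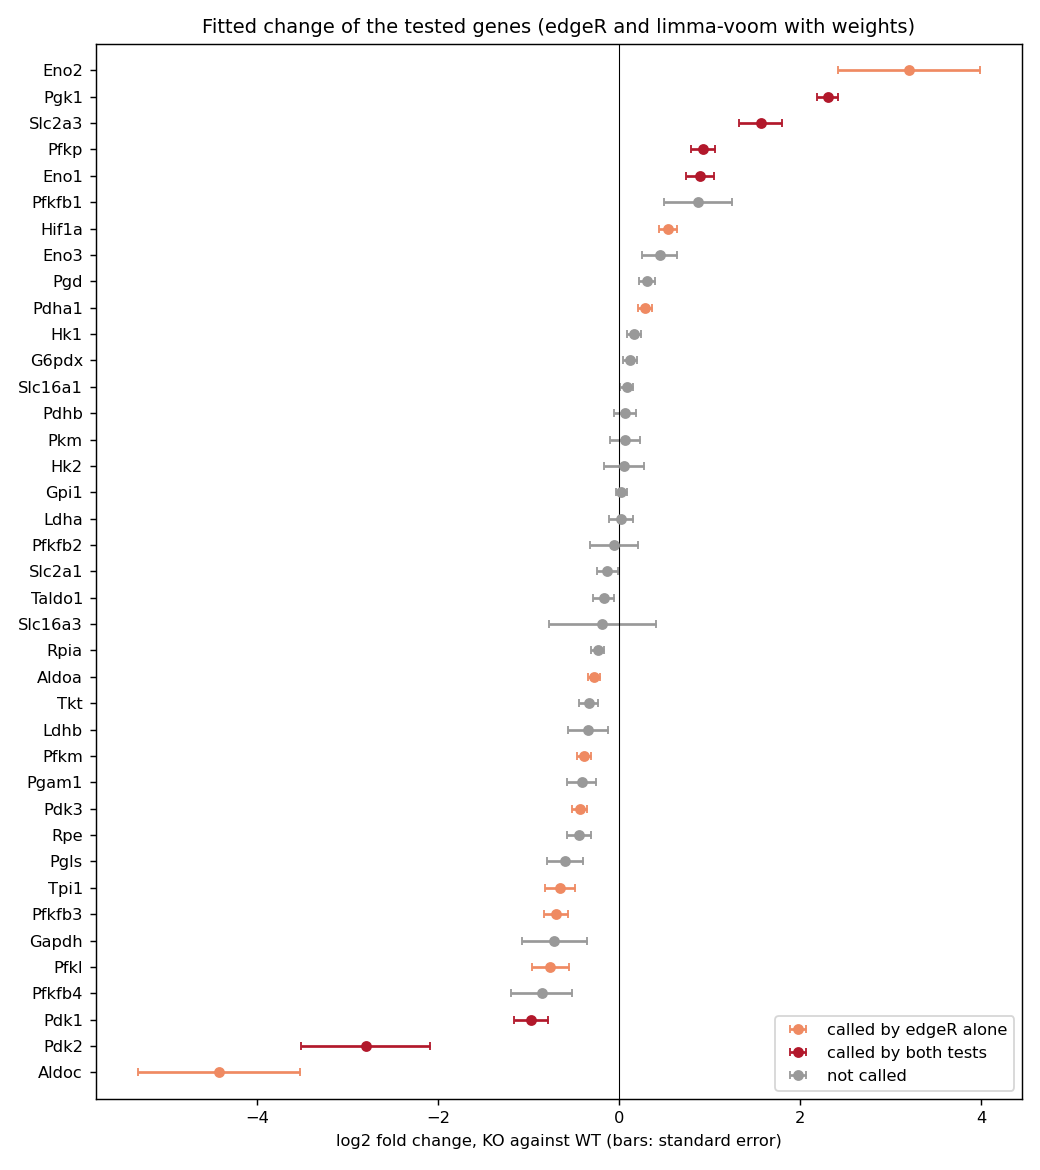
Log2 fold change (KO minus WT) with its standard error for each tested member, ordered by that change, from the edgeR fit with sex as a term. Pgk1 and Eno2 lie furthest above 0 and Aldoc and Pdk2 furthest below it, with members of the same step on both sides.

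Of 16 tested proliferation genes, 5 (31.2%, beside 14.1% of all tested genes) were higher in KO, none was lower and 11 did not pass the test by edgeR. Limma-voom with weights called 6 higher and none lower, beside 7.42% and 3.86% of all tested genes. At an unadjusted p under 0.05, edgeR gave 10 higher and none lower, without a share over all tested genes to set beside them. The median log2 fold change of the proliferation genes was 0.59. Their summed level was 3979 to 4794 CPM in WT, 7561 CPM in KO 1 and 5506 CPM in KO 2. Ccnb2, a mitotic cyclin, was at 49.0 to 67.0 CPM in WT and 186 and 150.4 CPM in KO (log2 fold change 1.49, SE 0.168, adjusted p = 0.00341). Mki67, the gene of the Ki-67 antigen, was at 404 to 529 CPM in WT and 996 and 807 CPM in KO (log2 fold change 0.93, SE 0.151, adjusted p = 0.0106). Rrm2, a ribonucleotide reductase subunit, and Birc5, survivin, had log2 fold changes of 0.81 (SE 0.160, adjusted p = 0.0182) and 0.99 (SE 0.244, adjusted p = 0.0346). The calls for Rrm2 and Birc5 were lost without WT 1, WT 2 or WT 3, at adjusted p up to 0.0643 and 0.0909. The part of proliferation in the members' values was not tested.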

How the data were processed

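RNA of 6 DN3 libraries, 4 WT and 2 KO, was sequenced as paired ends from SMART-Seq v4 libraries, per the labels' protocols. The authors deposited unnormalized counts for each Entrez gene, from featureCounts on mm10 per the submitters' processing notes. Its version and strand setting, the aligner and the treatment of reads that match several places were not given in the sources used here, and the kit does not mark strand. The 6 tables of single libraries held the same counts as the table of the series.

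Symbols and coordinates came from a RefSeq table of assembly GRCm38.p6, the primary assembly of mm10, for 25275 of 26332 genes and all 40 members. In R 4.3.3, edgeR 4.0.16 tested the counts of all genes: filterByExpr by genotype with a count minimum of 10 (13294 genes), TMM scaling, and the robust quasi-likelihood F-test with sex as a term, which leaves 3 residual degrees of freedom. Calls were made at p under 0.05 after Benjamini-Hochberg adjustment over all tested genes. Every adjusted p is from this test unless another tool is named. CPM are TMM-scaled, and SE is the log2 fold change divided by the square root of F. Alternatives used limma-voom (limma 3.58.1) with weights per genotype, DESeq2 1.42.0, other scalings and filters, no sex term, the replicate block and each library left out. The procedure was also run on simulated data with the same spread in both genotypes. The KO libraries here varied more than WT, so that run does not show how the procedure does on these data.

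The members and gene lists were chosen with earlier results of these data known. Full values are given for called members and for the member of each step with the highest level per length. Of each other list, up to 4 called genes of largest log2 fold change are given. Reads carry no molecular identifiers, so floors at 3 counts cover counting error only.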

Additional observations from a re-analysis of the deposited data

Results flagged for a closer look

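In 3 of 40 members, 1 of the 4 WT libraries lay apart from the others by Dixon's criterion, which chance meets in about 1 of 20 groups. Pfkfb2 was at 15.6 CPM in WT 1, below the other WT libraries. Aldoc was at 11.6 CPM in WT 1, above the others. Tpi1 was at 219 CPM in WT 4, the male mouse, below the others.

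The interaction of genotype and sex passed edgeR's test for 29 of 39 tested members (74.4%), beside 54.7% of all tested genes. The male WT, male KO and female KO arms held 1 mouse each and the residual spread came only from the 3 WT females, so the test compares single mice and cannot show a sex difference. The values below are the log2 fold change in males minus that in females. For 8 members the mice of the 2 sexes went in opposite directions, and the interaction was 2.13 for Slc16a3, 0.88 for Hk2, 1.03 for Pfkfb2, 0.71 for Pkm, 0.57 for Ldha, 0.93 for Ldhb, 0.48 for Pdhb and -0.44 for Taldo1. For the other 21 the direction was the same in both sexes. The increase was larger in the male for Slc2a3 (1.03), Hk1 (0.23), Pfkp (0.43), Pgk1 (0.43), Eno1 (0.65) and Pgd (0.31), and smaller in the male for Eno3 (-0.62), Pdha1 (-0.24) and Hif1a (-0.39). The decrease was smaller in the male for Pfkl (0.86), Tpi1 (0.70), Gapdh (1.11), Pgam1 (0.59) and Tkt (0.38). It was larger in the male for Pfkfb3 (-0.48), Pfkfb4 (-1.29), Aldoc (-7.61, with no count in the male KO mouse), Pdk1 (-0.82), Pdk2 (-3.29), Pgls (-0.88) and Rpe (-0.52).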

How the results depend on the processing

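The calls for Slc2a3 and Pgk1 held under all alternatives, limma-voom with weights per genotype and the replicate block included. Over all genes, 4076 calls were made, with 7 members higher and 9 lower and a member median of -0.13 (log2). Limma-voom with weights gave 1500 calls, 4 members higher, 2 lower and a median of 0.016, and 65.8% of its calls were upward against 46.1%. DESeq2 gave 5261 calls, 8 members higher and 13 lower. Without the sex term the median was -0.050, and with upper-quartile scaling -0.16. With the replicate block and no sex term, 748 genes were called, 2 members higher and 0 lower, with a median of -0.17. Replicate numbers do not pair these mice: the correlation of deviations was -0.11 for number 1 and 0.033 for number 2. Leaving out 1 library gave 1665 to 9473 calls, 3 to 18 members higher, 0 to 21 lower and medians from -0.23 to 0.048. Without WT 4, KO 1 or KO 2 the spread between KO mice no longer enters the residual, so the remaining KO mouse is assumed to vary like WT. Directions reversed without WT 4 for Hk2 (-0.31), Pkm (-0.23) and Ldha (-0.21) and without KO 1 for the same genes (-0.30, -0.21 and -0.19), whose values without KO 2 were 0.55, 0.47 and 0.34. They reversed without KO 2 for Slc16a3 (0.89), Pfkfb2 (0.52) and Ldhb (0.18), whose values without WT 4 were -1.23, -0.49 and -0.73. The cause was not tested. The smaller depth of the KO libraries limits values under about 1 CPM, such as those of Hk3 and Eno2.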
